A study of Mus musculus with 2 samples.

Results

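The genes described here are those of the mouse major histocompatibility complex (MHC) and of antigen presentation, 50 of the 43346 mouse genes in the tables. They were chosen by name and not by level: 41 of the 45 genes whose symbol starts with H2- were kept, the 4 with a pseudogene suffix were left out, and 9 further genes were added. Those 9 are B2m, Cd74, Ciita, Nlrc5, Tap1, Tap2, Tapbp, Psmb8 and Psmb9. The study sequenced polyadenylated RNA of whole adipose tissue, the fat-storing tissue, from a male C57BL/6J mouse aged 10 weeks, as 1 biosample and 2 technical libraries. Per the labels, library 2 dates from 2015 and was no part of the study published in 2014, so the effects of library and date cannot be told apart. No treatment, mutant or second animal is part of the design, and every SD below is a technical spread over n = 2 libraries. The labels do not say which fat depot was taken.

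MHC class I molecules sit on nearly all nucleated cells and show peptides from inside the cell to CD8 T cells. Each is a heavy chain held by the light chain beta-2-microglobulin (B2m), and its peptides are cut by the proteasome and carried into the endoplasmic reticulum by the Tap transporter. MHC class II molecules show peptides from endosomes to CD4 T cells. They are made mainly by macrophages, dendritic cells and B cells, under the transactivator Ciita, and adipose tissue is known to hold many macrophages. In whole tissue, fewer cells of a type and less RNA per cell cannot be told apart.

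Promoter sequences of 5 of these genes are shown first, because H2-K1, H2-D1, B2m, H2-Aa and H2-Eb1 carry most of the RNA described below and their promoters hold the letters that the classes share. They are RefSeq sequences of build GRCm38.p6, each from 250 bases before to 50 bases after an annotated start. Capitals mark the Y box core ATTGG (or its other-strand form CCAAT), the kappa B letters GGGATTCCC, the interferon response core TTTCNNTTT on either strand, and the short X1 core TAGCAAC. The last was chosen after the sequences had been read.
H2-K1 (chr17:34000298-34000597, minus strand): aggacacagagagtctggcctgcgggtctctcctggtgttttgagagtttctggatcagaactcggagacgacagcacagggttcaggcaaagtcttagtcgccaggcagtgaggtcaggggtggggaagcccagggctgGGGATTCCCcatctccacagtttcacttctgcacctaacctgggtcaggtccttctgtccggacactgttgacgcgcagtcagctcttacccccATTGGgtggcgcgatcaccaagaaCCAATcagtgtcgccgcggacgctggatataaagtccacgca
H2-D1 (chr17:35262844-35263143, plus strand): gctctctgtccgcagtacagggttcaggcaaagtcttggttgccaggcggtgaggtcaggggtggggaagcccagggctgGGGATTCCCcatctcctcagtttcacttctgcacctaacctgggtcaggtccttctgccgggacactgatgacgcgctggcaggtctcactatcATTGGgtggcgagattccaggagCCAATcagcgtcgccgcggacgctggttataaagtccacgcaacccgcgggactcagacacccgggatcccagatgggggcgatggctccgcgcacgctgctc
B2m (chr2:122147437-122147736, plus strand): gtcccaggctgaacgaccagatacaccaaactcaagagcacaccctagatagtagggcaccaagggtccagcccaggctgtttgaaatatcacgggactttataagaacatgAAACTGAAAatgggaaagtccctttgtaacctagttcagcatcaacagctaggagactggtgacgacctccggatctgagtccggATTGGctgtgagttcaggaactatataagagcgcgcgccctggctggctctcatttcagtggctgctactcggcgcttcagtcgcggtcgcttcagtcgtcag
H2-Aa (chr17:34287774-34288073, minus strand): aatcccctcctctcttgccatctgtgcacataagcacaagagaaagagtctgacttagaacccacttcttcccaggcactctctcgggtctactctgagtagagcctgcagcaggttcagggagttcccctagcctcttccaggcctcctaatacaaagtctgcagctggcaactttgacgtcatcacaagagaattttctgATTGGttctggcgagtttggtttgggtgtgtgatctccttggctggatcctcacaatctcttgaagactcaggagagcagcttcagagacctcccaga
H2-Eb1 (chr17:34305617-34305916, plus strand): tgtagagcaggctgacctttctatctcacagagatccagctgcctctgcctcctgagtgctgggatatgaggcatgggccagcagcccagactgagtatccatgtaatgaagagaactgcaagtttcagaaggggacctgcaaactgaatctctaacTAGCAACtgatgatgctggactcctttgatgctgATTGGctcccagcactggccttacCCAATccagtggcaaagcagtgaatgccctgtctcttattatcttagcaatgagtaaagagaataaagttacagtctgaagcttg

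The promoters of H2-K1 and H2-D1 held the same kappa B letters, with the first base 94 bases before that of the Y box core in each. A second, opposite Y box core followed 24 bases later in H2-K1 and 23 bases later in H2-D1. Set side by side without gaps at an offset of 60 bases, the stretches matched at 176 of 240 bases (73.3%). The unequal spacing of the Y box cores puts these stretches out of register from the second core on. The share thus leaves out matches that a gap would bring together. B2m held the Y box core and the interferon response core and no kappa B letters. H2-Aa held a Y box core with its first base 48 bases before the start, and H2-Eb1 held an opposed pair of them and the short X1 core.

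The promoter table held 36 of the 50 genes. Cd74, Ciita, H2-Ab1, H2-Bl, H2-K2, H2-Pa, H2-Pb, H2-Q1, H2-Q3, H2-Q5, H2-T10, H2-T24, Nlrc5 and Tap2 had no entry. The Y box core stood in 32 of the 36, against 41.1% of the 27025 genes of the table, and in 8 of 8 class II genes. The kappa B letters stood in H2-K1, H2-D1, H2-Q6 and H2-Q7 (4 of 36, against 0.414% of genes). The interferon response core stood in 7 of 36 (12.1% of genes). The X1 core TAGCAACAG stood in none of the 36 (0.722% of genes), and the short form stood in H2-Eb1, H2-Eb2 and H2-Ob (4.28% of genes). A match of letters is a description of these windows and does not show that a factor binds there.

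The tables gave 19954869 expected counts in library 1 and 19256807 in library 2, and these genes took 0.303% and 0.428% of them. Levels are given in TPM, an abundance per transcript length that sums to a fixed total in each library. Of all TPM, 51.7% in library 1 and 15.9% in library 2 fell on mitochondrial genes and their chromosome 1 copies, which lowers the TPM of other genes in library 1. Ratios between the libraries are therefore given from counts, as log2 of library 2 over library 1 with 0.5 added, scaled by edgeR's TMM, with a 95% exact interval for counting error. A gene is called higher or lower where an exact binomial test with Benjamini-Hochberg adjustment over 18275 genes gives an adjusted p below 0.05 and the change is at least 2-fold. This compares 1 library with 1 other, with no replicate check.

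The tissue label was checked against marker genes. All 8 adipocyte markers were detected in both libraries and summed to 5075 and 14035 TPM. The 7 epididymal markers were also detected and summed to 41025 and 49919 TPM, above the adipocyte list in both libraries. Endothelial markers summed to 121 and 266 TPM, stromal progenitor markers to 336 and 394 TPM and epithelial markers to 136 and 616 TPM. The class I genes are expressed by nearly all of these cell types, and how much of their RNA came from each was not tested.

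Of the 50 genes, 26 reached 1 TPM in both libraries, 32 reached it in library 2, 18 stayed under it in both and 12 had no count in either. Their TPM summed to 4801 in library 1 and 5759 in library 2. Of the 34 with enough counts to test (10 in sum), 23 were called higher in library 2, 2 were called lower and 9 were called neither way. Across all genes tested 30.2% were higher, 18.6% lower and 48.8% called in either direction. All genes tested had a median log2 ratio of 0.02, and the members tested one of 1.72. Scaling by total counts moved that median of all genes by 0.44, to 0.46. It also moved the share of all calls that were higher from 61.8% to 85.1%, and the members' counts to 26 higher and 1 lower.

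**Figure D1:**
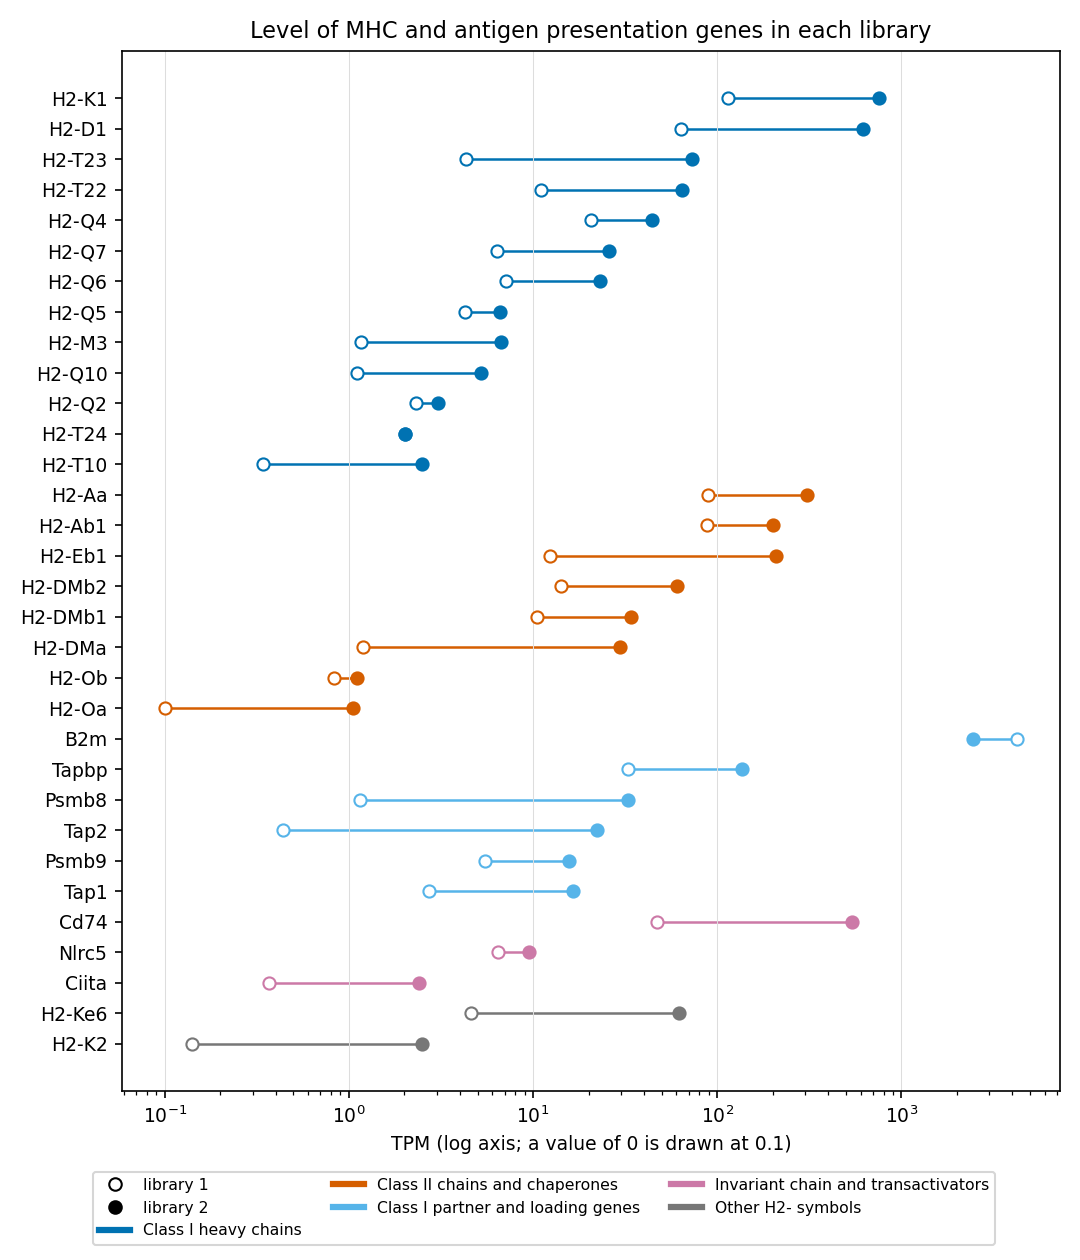
TPM of the 32 genes that reached 1 TPM in either library, on a log axis, with open circles for library 1, filled circles for library 2 and colours for the class of gene. B2m is the 1 gene drawn with a lower TPM in library 2 (2440.4 against 4244), H2-T24 has the same TPM in both, and the other 30 are higher in library 2.

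H2-K1 and H2-D1, the classical heavy chains that present peptides to CD8 T cells, led the class I genes. H2-K1 (chromosome 17, 33996017 to 34000347, minus strand, in the GENCODE M21 annotation of GRCm38) had 114 and 758 TPM in libraries 1 and 2. It ranked 655th and 183rd among all genes, at 436 ± 455 TPM (SD, n = 2). Its count ratio was 1.99 (1.93 to 2.05). H2-D1 (chromosome 17, 35262730 to 35267499, plus strand) had 63.5 and 620 TPM, with a count ratio of 3.004 (2.92 to 3.08). Both were called higher, and H2-K1 exceeded H2-D1 by 1.79 times in library 1 and 1.22 times in library 2. Summed, the pair gave 4134 and 28871 counts.

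B2m (chromosome 2, 122147686 to 122153083, plus strand), the light chain shared by class I molecules, moved the other way. At 4244 and 2440.4 TPM it ranked 21st and 44th of all genes, and its count ratio was -1.53 (-1.56 to -1.51), called lower. B2m exceeded the sum of H2-K1 and H2-D1 by 24.0 times in library 1 and 1.77 times in library 2. The light chain and its heavy chains thus stood in very different proportions in libraries of the same biosample. The GC content of the transcripts was 41.2% for B2m, 55.3% for H2-K1 and 53.9% for H2-D1.

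The nonclassical heavy chains (25 genes) were together lower, at 0.349 and 0.186 of the classical pair's TPM. H2-T23, which encodes Qa-1, a ligand of inhibitory receptors on natural killer cells, had 4.31 and 72.5 TPM and was called higher (3.30, 3.01 to 3.61). H2-T22, a ligand of some gamma delta T cell receptors, had 11.1 and 64.6 TPM and was called higher (1.71, 1.53 to 1.89). H2-T10, its close relative, had 0.34 and 2.51 TPM, also called higher. The T genes that were expressed thus stood higher in library 2, except H2-T24, which had 2.01 TPM in both libraries and a count ratio of -0.78 (adjusted p = 0.00685, exact binomial test), under 2-fold.

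The Q genes, which include those for the Qa-2 antigens, were nearer to even. H2-Q4 had 20.7 and 44.3 TPM with a count ratio of 0.17 (0.03 to 0.31), H2-Q7 had 6.39 and 25.7 TPM with 0.37 (0.19 to 0.54), and H2-Q6 had 7.13 and 23.1 TPM with 0.95 (0.73 to 1.18). None of these reached 2-fold. Because H2-Q4 to H2-Q7 and H2-Q10 share sequence, their counts were also summed, to 1448 and 2571, a log2 ratio of 0.44 (0.35 to 0.53). For the classical pair the same sum gave 2.42 (2.37 to 2.46). H2-Q10, a secreted heavy chain best known from liver, had 1.11 and 5.19 TPM. H2-Q5 was called higher at 4.25 and 6.58 TPM on 10.2 and 81.8 counts, and H2-Q2 had 2.31 and 3.04 TPM.

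Along the chromosome the expressed class I genes ended at H2-T10, apart from H2-M3. H2-M3, which presents N-formylated peptides of bacterial and mitochondrial origin, had 1.17 and 6.73 TPM and was called higher. It was the 1 gene of the 12 H2-M class I genes to reach 1 TPM in both libraries, and 8 of the 12 had no count, including the 6 H2-M10 genes, a family known from vomeronasal neurons. H2-M9 was called lower on 10 and 2 counts (0.65 and 0.17 TPM), and it was the highest in library 1 of the class I genes under 1 TPM in both. For the 12 genes without a count, 3 counts would have been 0.125 to 0.510 TPM (library 1) and 0.159 to 0.646 TPM (library 2), so levels under those were not detectable at this depth.

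**Figure D2:**
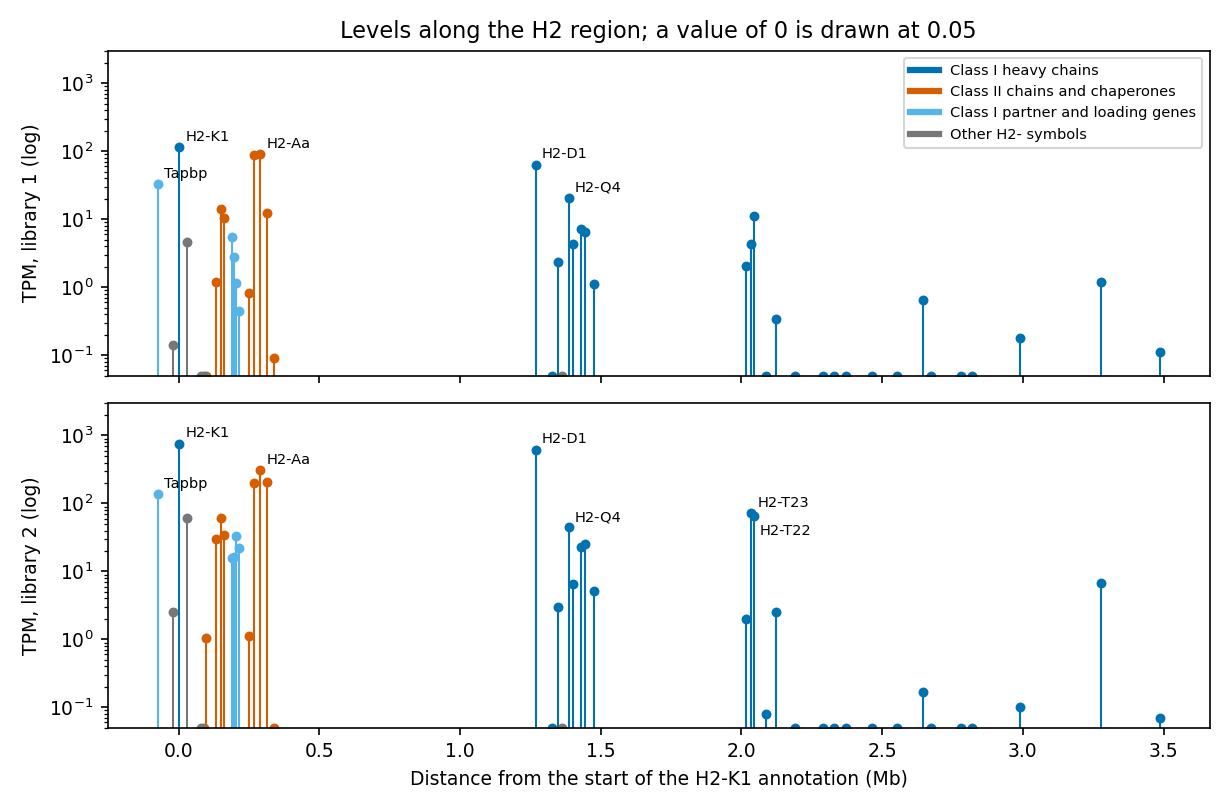
TPM of the 46 genes on chromosome 17 in each library (log axis), by distance in Mb from the start of the H2-K1 annotation, with colours for the class. H2-D1 lies 1.27 Mb from that start, with the class II genes and the class I loading genes close to H2-K1, and the stretch past H2-T10 (2.12 Mb) holds H2-M3 as its 1 gene above 1 TPM.

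The genes that supply class I molecules with peptide had less TPM than H2-K1 and H2-D1 in both libraries. All 5 were called higher in library 2, against 30.2% of all genes tested. With the GC trend described below removed, Psmb8 and Tap2 stayed higher, Tapbp was lower (-2.21), and Tap1 and Psmb9 were called neither way. Tapbp, tapasin, which holds empty class I molecules at the transporter, had 32.8 and 137 TPM (1.03, 0.95 to 1.12). Tap1 and Tap2, the subunits of the peptide transporter, had 2.73 and 16.4 TPM (1.73, 1.46 to 2.02) and 0.44 and 22.1 TPM (4.96, 4.33 to 5.77). Transporter subunits work as a dimer, yet Tap1 had 6.20 times the TPM of Tap2 in library 1 and 0.743 times in library 2. Tap2 rested on 18 counts in library 1.

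Psmb8 and Psmb9 are immunoproteasome subunits, which replace Psmb5 and Psmb6 of the standard proteasome. Psmb8 had 1.15 and 32.7 TPM (3.41, 2.89 to 4.03) and Psmb9 had 5.45 and 15.7 TPM (2.09, 1.62 to 2.61). Psmb8 stood at 0.447 of Psmb5 in library 1 and 0.250 in library 2. Psmb9 stood at 0.316 and 0.0799 of Psmb6. Psmb10, the third subunit of that set, stood at 0.00249 and 0.175 of Psmb7. By TPM the immunoproteasome subunits were therefore below their standard partners in both libraries for each of the 3 pairs. The size of the gap depended on the library. In library 1 Psmb8 had 29 counts and Psmb5 30, so their order there rested on the transcript lengths that TPM divides by. Psmb10 had 5 counts in library 1, and its GC content was 58.3%, against 43.1% for Psmb7.

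Tap1 and Psmb9 lie head to head on opposite strands and their annotations overlap by 212 bases. Tapbp overlaps Zbtb22 on the same strand, and H2-DMa overlaps the opposite-strand gene Brd2, which had 64.1 and 111 TPM. Whether the counting used strand is not given in the sources used here, so reads in such overlaps are uncertain.

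Of the class II genes, H2-Aa had the highest TPM in both libraries; H2-Ab1 followed in library 1 and H2-Eb1 in library 2. H2-Aa (chromosome 17, 34282744 to 34287823, minus strand), the A alpha chain, had 89.4 and 308 TPM, with 1433 and 3891 counts and a ratio of 1.05 (0.97 to 1.14, adjusted p = 1.09e-134 by the exact binomial test). H2-Ab1, the A beta chain, had 88.3 and 201 TPM on 617 and 2629 counts, a ratio of 1.70 (1.58 to 1.83). H2-Eb1, the E beta chain, had 12.4 and 208 TPM on 211 and 2785 counts, a ratio of 3.33 (3.13 to 3.54). All 3 were called higher, H2-Eb1 by the most, against 30.2% of all genes tested. With the GC trend described below removed, H2-Aa and H2-Eb1 stayed higher and H2-Ab1 was lower. H2-Eb2 was nearly silent at 3 counts and 1 count. The partner of the E beta chains, the E alpha chain, is not transcribed in mice of the b haplotype such as C57BL/6, and H2-Ea-ps, left out by its suffix, had 0 counts in both libraries.

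Cd74, the invariant chain that fills the class II groove until the molecule reaches the endosome, had 47.2 and 540 TPM and ranked 1696th and 252nd of all genes. Its ratio was 2.79 (2.69 to 2.89), called higher. It stood at 0.248 of the summed TPM of H2-Aa, H2-Ab1 and H2-Eb1 in library 1 and at 0.752 in library 2.

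H2-DM removes the last fragment of the invariant chain and edits the peptides, and H2-O holds H2-DM back. H2-DMb2 had 14.2 and 60.4 TPM (1.60, 1.35 to 1.87), H2-DMb1 10.5 and 34.1 TPM (1.38, 1.12 to 1.64) and H2-DMa 1.19 and 29.7 TPM (4.23, 3.60 to 5.01). All 3 were called higher, against 30.2% of all genes tested, and H2-DMa alone stayed so with the GC trend described below removed. Of the H2-DMb2 TPM, 8.06 and 26.96 fell on a retained-intron transcript that GENCODE M21 assigns to H2-DMb1, as H2-DMb1-202. The order of the 2 beta chain genes thus depends on the annotation. From coding transcripts alone H2-DMb2 had 6.11 and 33.5 TPM and H2-DMb1 5.60 and 32.5 TPM. The alpha chain gene H2-DMa stood at 0.0483 of the beta chain genes in library 1 and 0.314 in library 2, on 19 counts in library 1. The summed DM genes kept nearer to the A and E chains, at 0.136 and 0.173 of their TPM.

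The inhibitor chains were near the limit of detection. H2-Ob had 0.83 and 1.11 TPM with a ratio of -0.14 (-0.86 to 0.61, adjusted p = 0.751, exact binomial test). H2-Oa had 0 counts in library 1 and 13 in library 2 (1.05 TPM), at least 3.31-fold higher when 13 counts are set against a floor of 3 counts in library 1. The exact interval, which also covers counting error in the 13 counts, starts at a log2 ratio of 1.22, and the call was lost with the GC trend described below removed (adjusted p = 0.504, exact binomial test).

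Ciita and Nlrc5 are the transactivators of class II and class I genes. Ciita had 0.37 and 2.40 TPM on 32 and 163 counts and was called higher (1.94, 1.41 to 2.56). Nlrc5 had 6.44 and 9.55 TPM on 204 and 407 counts and did not reach 2-fold (0.61, 0.36 to 0.86). Both had less TPM than H2-K1, H2-D1, H2-Aa, H2-Ab1 and H2-Eb1 in both libraries.

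The remaining H2- symbols are not presenting molecules. H2-Ke6, a dehydrogenase gene that lies within the complex, had 4.60 and 61.9 TPM and was called higher. H2-K2, annotated as a pseudogene, had 0.14 and 2.51 TPM, and the pseudogenes H2-Q3, H2-Pa and H2-Pb had no count.

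Class I and class II were compared within each library, with no test, since the genes of a library share its depth and makeup. The 27 class I heavy chains summed to 239 and 1634 TPM, and the 9 class II chains and chaperones to 217 and 844 TPM. Class I thus stood at 1.10 times class II in library 1 and 1.94 times in library 2. For H2-K1 plus H2-D1 over H2-Aa, H2-Ab1 and H2-Eb1 the ratio was 0.931 and 1.92, so it lay on either side of even. With transcripts annotated as protein coding alone this second ratio was 1.501 and 1.92, an alternative added after the data were seen. For the full classes the coding transcripts gave 1.64 and 1.97. The order in library 1 thus changed with the transcripts counted for those 5 genes and stayed for the full classes.

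Between the libraries, 7 of 15 class I heavy chains tested were called higher and 1 lower, with a median log2 ratio of 0.95. Among class II genes 7 of 8 tested were higher and none lower, with a median of 1.65; H2-Ob, the eighth, had the value given above. Of the 6 class I partner and loading genes 5 were higher and 1, B2m, lower, with a median of 1.91. Across all genes tested 30.2% were higher and 18.6% lower. With the GC trend described below removed, 5 class I heavy chains were higher and 3 lower. For class II these counts were 3 and 1, and for the partner and loading genes 2 and 1. The shares of all genes were then 9.28% higher and 8.76% lower. Summed counts, with the trend left in, gave an order other than that of the medians above. They gave 2.09 (2.05 to 2.13) for the class I heavy chains and 1.68 (1.62 to 1.74) for class II. H2-K1 and H2-D1 held 4134 of the 6167 class I counts in library 1 and 28871 of the 34420 in library 2.

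The log2 ratio between the libraries followed transcript GC content across all genes, with a Spearman rho of 0.893 over 12045 genes of at least 100 counts on average. Over the 22 members among them rho was 0.36 and Pearson's r was 0.59. Nearly all of these members lay between 50% and 60% GC, a narrower range than that of all genes. The rho values are therefore not directly comparable. All are descriptions across genes of the same libraries. The tested genes of the MHC set had a median GC content of 54.4%, against 49.7% for all genes tested. In the band from 50% to 55% GC the median ratio was 0.77 over 3252 genes (quartiles 0.20 and 1.48), and the 10 members in it had a median of 1.66. From 55% to 60% GC it was 2.54 over 2217 genes (quartiles 1.66 and 3.51), and the 10 members there had a median of 2.39. B2m, at 41.2% GC, had -1.53 in a band with a median of -1.09.

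**Figure D3:**
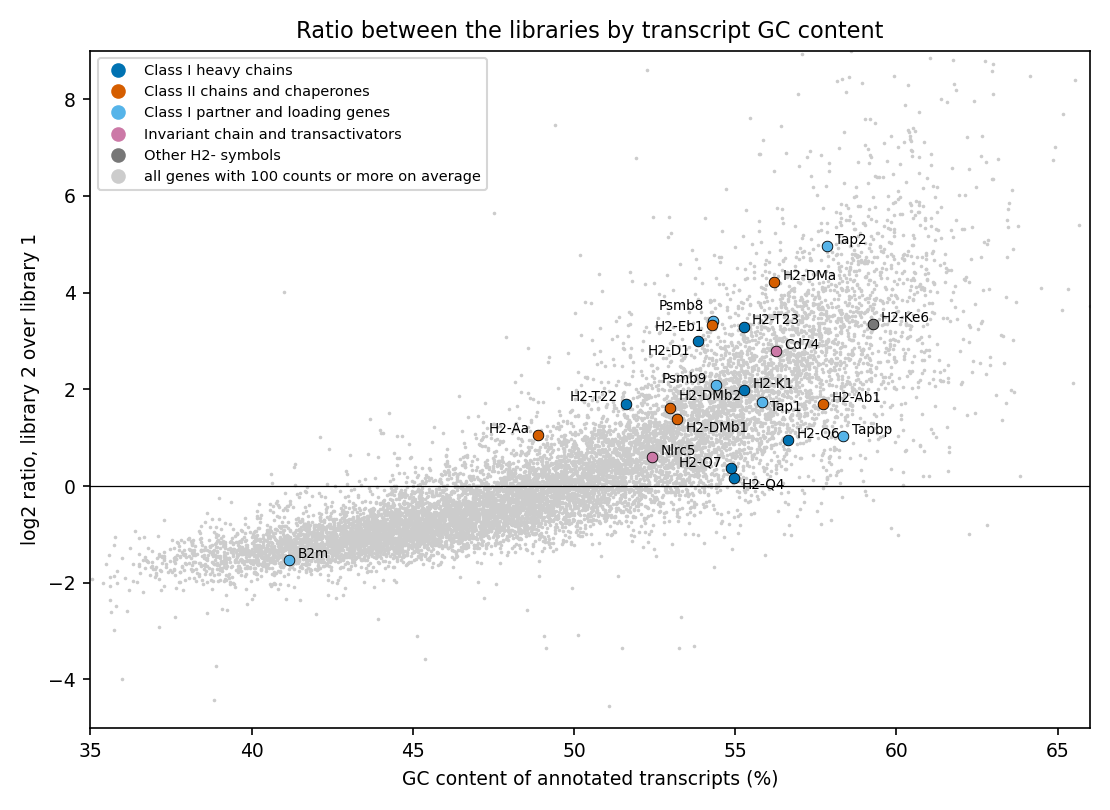
Log2 ratio of library 2 over library 1 against the GC content of annotated transcripts, for all genes with 100 counts or more on average (grey) and the 22 members among them (coloured by class, named). The grey points slope upwards and the members scatter around that slope. Tap2, H2-DMa, Psmb8, H2-Eb1, H2-D1, H2-T23, H2-T22 and H2-Aa lie more than 2-fold above it. Tapbp, H2-Q6, H2-Q4, H2-Q7 and H2-Ab1 lie more than 2-fold below it. Grey points beyond the axis limits are not drawn.

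With the median ratio at each gene's GC content subtracted, 10 members were called higher and 5 lower, against 9.28% higher, 8.76% lower and 18% either way of 18147 genes. The 10 were H2-Aa, H2-D1, H2-DMa, H2-Eb1, H2-M3, H2-T10, H2-T22, H2-T23, Psmb8 and Tap2. The 5 were H2-Ab1, Tapbp, H2-Q4, H2-Q6 and H2-Q7, of which H2-Ab1 and Tapbp had been called higher before. H2-Aa had 1.21 and H2-Ab1 -1.08, although the A alpha and A beta chains form a dimer. H2-D1 had 1.78 and H2-K1 0.16, and B2m had -0.28. The GC content of a gene was pooled over all its annotated transcripts, whether or not they had reads. It was 48.9% for H2-Aa, against 51.0% for its main transcript H2-Aa-201. For H2-D1 it was 53.9%, against 55.9% for its main transcript H2-D1-202. The trend rose with GC content, so the values of H2-Aa and H2-D1 depend on this pooling, and main transcripts alone were not tested. The median became -0.71 for class I heavy chains, 0.92 for class II and 0.16 for the partner and loading genes. The median size of the log2 ratio, without its sign, went from 1.72 to 1.21 over the 22 members with 100 counts on average, and from 0.99 to 0.38 over all such genes. These sets differ in GC content. Nearly all of the 22 lay between 50% and 60% GC, where the ratios of all genes, trend left in, also spread more widely than at lower GC content. A comparison at matched GC content was not made. The part of GC content in each gene's ratio was not tested further.

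The transcript tables gave the share of a gene's TPM for each transcript. Among members with 100 counts or more on average H2-Ab1 differed the most: its protein-coding transcript H2-Ab1-201 took 11.2% in library 1 and 92.3% in library 2, and a retained-intron transcript of 515 bases, H2-Ab1-203, took 86.4% and 6.00%. In TPM the coding transcript had 9.86 and 186. The abundance-weighted transcript length of the gene was 595 bases in library 1 and 1159.5 bases in library 2. Its TPM, which divides by that length, was 2.28 times higher in library 2, on 617 and 2629 counts. The coding transcript had 57.3% GC and the retained intron 49.5%.

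The leading transcript also differed between the libraries for Psmb9, Tap1, Psmb8, H2-Q4, H2-T22 and H2-DMb2. Psmb9-202 took 80.2% and 7.41% of its gene and Psmb9-204 took 12.8% and 68.0%, both annotated as protein coding. Tap1-206 took 10.6% and 69.9%, and Psmb8-203 took 7.52% and 63.1%. H2-Q4-201 took 46.9% and 78.1%, and H2-Q4-202 took 53.1% and 21.9%. H2-T22-202 took 43.1% and 72.75%, and H2-T22-203, just ahead of it in library 1, took 43.9% and 17.1%. H2-DMb2-201 took 43.1% and 53.75% of H2-DMb2, against 56.9% and 44.6% for the retained-intron transcript H2-DMb1-202. H2-Q7, Tap2 and Nlrc5 kept their leading transcript while the shares moved. H2-Q7 had no TPM from coding transcripts in library 1 and 55.7% from them in library 2. Tap2 had none in library 1 and 19.95% in library 2, with the rest in the retained-intron transcript Tap2-202. Nlrc5-202 took 41.6% and 0%. These shares are estimates from short reads and rest on few counts for Tap2, Psmb8 and Psmb9 in library 1.

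The other members with 100 counts or more on average and several transcripts kept theirs. H2-Aa-201 took 98.3% and 98.9%, Cd74-201 85.0% and 80.7%, and H2-K1-201 76.5% and 87.8%. B2m, H2-Eb1 and Ciita have 1 transcript each in the tables. Of 19 members with 100 counts on average and several transcripts, the transcript whose share rose most had a higher GC content than the one whose share fell most in 16. It was the longer one in 13. Tap1, Tap2 and Tapbp were the exceptions for GC content.

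**Figure D4:**
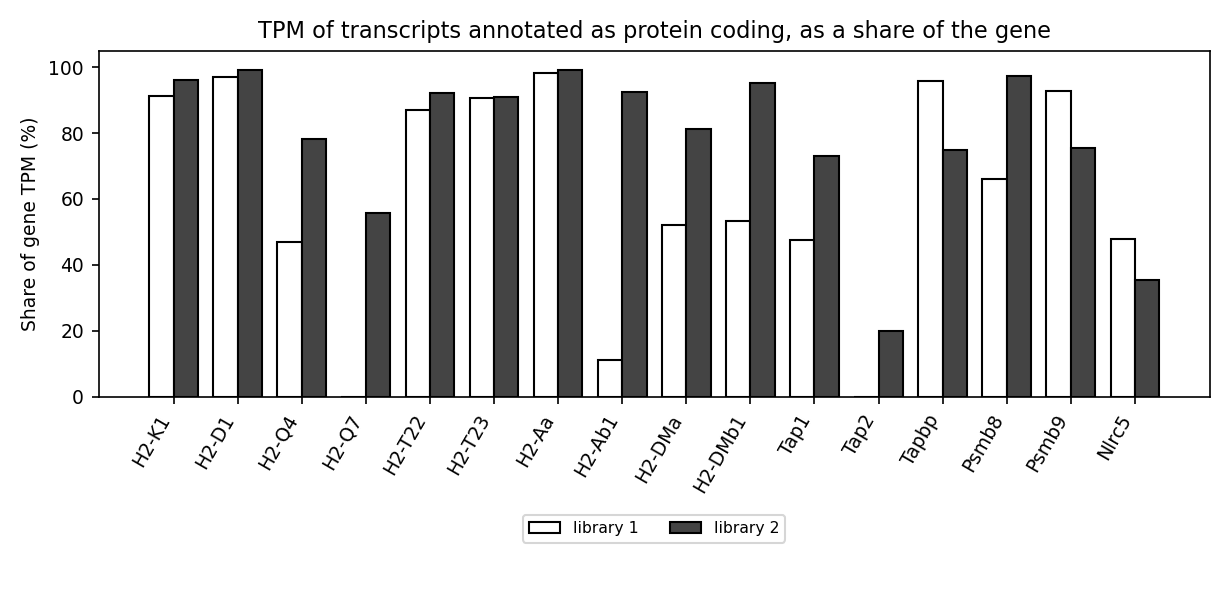
Share of each gene's TPM in transcripts annotated as protein coding, in percent, for 16 members in library 1 (white) and library 2 (grey). H2-Ab1 goes from 11.2% to 92.3% and H2-Q7 from 0% to 55.7%, H2-K1, H2-D1 and H2-Aa are above 90% in both, and Tapbp and Psmb9 are lower in library 2.

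Fractional counts occur where reads were divided between genes of like sequence. A count that was not whole within 0.005 in either library was found in 13 of the 38 members with any count, against 11.1% of all genes tested. Among them were H2-D1, H2-T23, H2-T22, H2-T10, H2-Q5, H2-Q6, H2-Q7, H2-Q10, H2-DMb1, H2-DMb2 and H2-Ke6, whose values depend on the way reads were split. The posterior SD of the count, deposited by the authors, differed in size between them. It was 0.43 and 3.42 for H2-D1, on 1389 and 14575 counts. For H2-Ke6 it was 3.49 and 4.92, on 47 and 631 counts. H2-K1, H2-Aa, H2-Ab1, H2-Eb1, Cd74, B2m and the Tap, Tapbp and Psmb genes had whole counts. Of the 12 fractional members tested, all shared stretches of 50 bases with another gene, a median of 25.6% of their stretches. Of the 22 with whole counts 12 shared any, with a median of 0.335%.

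H2-DMb1 shared 22.7% of its stretches with H2-DMb2, and their sum had a ratio of 1.49 (1.31 to 1.68), between those of the single genes. H2-T22 shared 31.2% with H2-T10, and their sum had 1.71 (1.54 to 1.89). H2-Ke6 shared 70.5% with Gm20427, which had 1.39 and 1.37 TPM. H2-K1 shared 9.63%, H2-Q4 21.8% and H2-Q2 16.1%, and all of these still had whole counts. With whole-count members alone class I stood at 0.732 and 1.09 times class II, which leaves out H2-D1 among others.

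Other genes of the pathway, outside the membership rule, were counted by function, and their counts stand beside the 30.2% higher and 18.6% lower of all genes tested. Counts with the GC trend removed stand beside 9.28% higher and 8.76% lower. The highest genes of a list are given by their mean TPM over both libraries. Of 7 factors of the class II promoter (led by Nfyc at 10.1 and 33.1 TPM, Nfyb and Nfya) 1 was higher, Rfxank, and 1 lower, Creb1, and with the GC trend removed none was called. Of 17 interferon pathway genes 2 were higher (Irf1 and Isg15) and 3 lower (Jak2, Cxcl9 and Ifit1), with a median ratio of -0.29, and the highest were Ifngr1, Jak1 and Ifnar2. With the trend removed 1, Isg15, stayed higher, none was lower and the median was -0.0013. Of 12 class I loading and proteasome genes 5 were higher and 3 lower, led by the chaperones Calr (1296 and 1242 TPM), Pdia3 (706 and 391 TPM) and Canx (398 and 255 TPM). Pdia3 and Canx were lower along with Erap1. With the trend removed 3 were higher (Psmb5, Psmb6 and Psmb10) and 2 lower (Pdia3 and Psme1). Of 10 class II processing genes 2 were higher, Ctsd and Ifi30, and 1 lower, March1, with Lamp1, Ctsd and Ctsl the highest, and none was called with the trend removed.

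Of the 8 class I-like genes tested outside the complex 1 was higher, Fcgrt (5.05 and 119 TPM), the neonatal Fc receptor, which also pairs with B2m. Mr1, Raet1e and Ulbp1 were lower, and with the trend removed Fcgrt alone of the 8 was called, as higher. Cd1d1, which presents lipids to natural killer T cells, had 110 and 145 TPM, and Hfe had 22.3 and 37.9 TPM. Of 5 costimulation genes tested Cd40 was higher and Cd86 lower, and the highest were Icosl, Cd274 and Cd86. Neither call stayed with the trend removed. The shares of all genes were 30.2% higher and 18.6% lower, and 9.28% and 8.76% with the trend removed.

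Markers of cells that could hold class II RNA were measured beside it. All 9 macrophage markers reached 1 TPM in both libraries and summed to 287 and 844 TPM, with 4 called higher and 1 lower (30.2% and 18.6% of all genes tested). With the GC trend removed none was higher and 1 was lower, C1qa, which had been called higher (9.28% and 8.76% of all genes were then called). Dendritic cell markers (5 of 8 detected in both) summed to 17.01 and 22.1 TPM. B cell markers summed to 53.1 and 155 TPM, nearly all Ighm, with Cd79a and Pax5 at 0 counts in library 1. T cell markers summed to 4.41 and 7.5 TPM, and Ptprc, the pan-leukocyte marker, had 13.6 and 10.9 TPM and was called lower, though not with the trend removed. By summed TPM, macrophage markers thus led the immune lists in both libraries. Lyz2 alone gave 173 and 448 TPM of their sum, and the lists differ in length. The part of macrophages in the class II values was not tested.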

How the data were processed

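Expected counts per gene and transcript, which need not be whole, were deposited by the authors together with TPM and FPKM (per the file headers). Each transcript's percent of its gene's TPM was also deposited by the authors. Text beside the files names the assembly mm10 and annotation M4; aligner and quantifier: not given in the sources used here.

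Symbols, coordinates and GC content were taken from GENCODE M21, a later release, which matched 42462 of 43346 identifiers. Counts were rounded, and genes reaching 10 counts over both libraries went into a two-sided exact binomial test (scipy 1.17.1) with TMM sizes from edgeR 4.0.16 and Benjamini-Hochberg adjustment, tested on simulated data. Clopper-Pearson intervals (95%) and floors cover counting error only, because reads that carry no molecular identifiers may be copies of 1 molecule. The GC trend was the median ratio in 40 bins of GC content. The members and lists were chosen with earlier results of these data known. Members at 10 TPM or more on average, the 9 genes outside the prefix, class II genes and up to 3 genes per pathway list were to be named; other genes were named after their values were seen. Alternatives were DESeq2 1.42.0 size factors, total counts, other filters and pseudocounts, posterior means, FPKM, an edgeR exact test and each library alone. Protein sequences and signal tracks were not used here.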

Additional observations from a re-analysis of the deposited data

How the results depend on the processing

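The count of members called higher stayed within 1.5 times of 23 under DESeq2 size factors, total counts, other filters, posterior mean counts, a pseudocount of 5 and edgeR's exact test at a dispersion of 0.01. With the GC trend removed it was 10. Members called lower, 2 in the main comparison, were 1 under total counts, 1 among genes of 100 counts on average and 5 with the GC trend removed. Removing the trend also reduced the calls over all genes from 5518 higher and 3405 lower to 1684 and 1589. The median log2 ratio of class I heavy chains was 1.69 among genes of 100 counts on average, where 7 remain, and -0.71 with the GC trend removed, a change of sign. The class II median was 2.09 under total counts and 0.92 with the trend removed, and that of the partner and loading genes 2.35 and 0.16. Of the genes called in the main comparison, those that changed sign with the trend removed were Tapbp (-2.21), Tap1 (-0.29), H2-Q5 (-1.08), H2-Ab1 (-1.08), H2-Ke6 (-0.22) and Ciita (-0.25). H2-Q4 (-1.51), H2-Q7 (-1.28), H2-Q6 (-1.53), H2-Q10 (-0.72), Nlrc5 (-0.18) and H2-Ob (0.33), called neither way before, changed sign too. By counts not divided by length, the mean ratio of class I to class II was 2.74 and that of the classical genes 2.47, where the lengths of the transcripts enter. With whole-count members alone the first was 0.909, which leaves out H2-D1 among others. Each library alone gave 1.10 to 1.94 for the first ratio, 0.931 to 1.92 for the classical genes and 26 to 32 members at 1 TPM. Without mitochondrial genes and copies in the TPM total, B2m averaged 5843 TPM and Nlrc5 12.3 TPM. No paired analysis was possible because the libraries form 1 group. Depth limits the genes under about 20 counts in library 1, such as Tap2, H2-DMa and H2-Oa.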
